A study of Octopus bimaculoides with 6 samples.

Results

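The SETMAR transcript family of *Octopus bimaculoides* was described here across 6 RNA-seq libraries. Its members were the 39 transcripts that the study's extended list of histone methyltransferases names SETMAR or SETMAR followed by a number, of 38556 coding targets and 40327 targets in all. The choice used names alone and no measured value, although earlier results of these data were known when it was made. The same list holds 48 other transcripts.

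The libraries came from adult arms and from a young whole animal, with 1 library per condition. An adult male (OB-5) gave transverse sections of its first left arm, taken 1.5 cm (distal), 3.5 cm (medial) and 5.5 cm (proximal) from the tip. A further adult male (OB2) and an adult female (OB9) gave the tip of the same arm up to 1.5 cm, and the last library was a whole-body hatchling at 30 dpf (days post-fertilization). No group carried a treatment or an altered allele, and the labels state no age for the adults. Position along the arm is shared with animal where a tip is set against the medial or proximal section. There position and animal cannot be told apart. The distal section (at 1.5 cm) and the tips (up to 1.5 cm) have the same labelled distance, but they too come from different animals. The sample numbers place both tips in a set of their own, apart from the sections and the hatchling. The labels do not say whether these sets were prepared or sequenced together, so set and tip cannot be told apart. Bulk RNA was measured, so fewer cells of a type and less RNA per cell cannot be told apart either.

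In human cells SETMAR (also called Metnase) joins a SET domain to a transposase domain derived from a mariner DNA transposon. The SET domain has been reported to methylate lysine 36 of histone H3 (H3K36). The protein takes part in the joining of DNA double-strand breaks. The fusion is known from anthropoid primates, while the rodent protein has the SET domain without the transposase. Mariner-like transposases are widespread in animal genomes, so a best match to the human entry does not say which of the domains a transcript resembles.

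For 38 of the 39 members the best UniProt match was the human SETMAR entry, and for 1, SETMAR.16, it was the rat entry. The 39 transcripts carried 38 gene identifiers, since SETMAR.20 (Ocbimv22017409m) and SETMAR.21 (Ocbimv22017410m) belong to 1 gene. Through protein and gene identifiers 19 members were linked to 22 RefSeq genes of the assembly ASM119413v2, and the other 20 to none. SETMAR.29 was linked to 4 RefSeq genes and SETMAR.33 to 2. The 22 genes lay on 13 chromosomes, and no pair of them was adjacent in gene order, so the linked copies did not sit side by side. The members were long: their median length was 4352 bases (range 507 to 16124), against 1059 bases over all coding targets, and 24 of the 39 reached 4000 bases, as did 10.1% of coding targets.

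The libraries held between 2812216 and 8201002 estimated counts on coding targets, lowest in the distal section and highest in the hatchling. The levels below are TPM (estimated counts per effective length, scaled to a common total in every library), recomputed over coding targets because non-coding targets took between 39.8% and 63.5% of the deposited TPM. With 1 library per condition no difference has a replicate check and no test could be run. Intervals are 95% exact Poisson intervals for levels and 95% Wilson intervals for shares, and they cover counting error only. Members were compared by interval in TPM over coding targets alone.

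The family was transcribed in all 6 libraries, and most members were well above the level of a typical coding transcript. The median member measured 9.59 TPM in the hatchling, 11.2, 12.7 and 16.7 TPM in the proximal, medial and distal sections, and 28.1 and 29.6 TPM in the male and female tips. The median over all coding targets lay between 3.79 and 6.59 TPM, over coding targets of at least 4000 bases between 4.82 and 9.04 TPM, and over the 48 other listed methyltransferases between 5.95 and 14.0 TPM. In every library 34 of the 39 members (87.2%) reached 1 TPM, as did 56.3% of all coding targets, and 18 members reached 10 TPM in every library, against 21.1% of coding targets.

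SETMAR.18 (Ocbimv22015562m, 4217 bases) had the highest mean level, 81.6 TPM. It measured 38.2 TPM in the hatchling, 50.6, 47.1 and 81.6 TPM in the proximal, medial and distal sections, and 132 and 141 TPM in the male and female tips. It was the leading member in 4 of the 6 libraries and held between 7.08% and 9.99% of the summed TPM. SETMAR.31 (Ocbimv22032208m, 1350 bases) followed, with 29.9 TPM in the hatchling, 60.7, 61.4 and 76.0 TPM along the arm sections, and 87.7 and 87.2 TPM in the tips. Its arm levels lay closer together than those of SETMAR.18, and it led the family in the medial section.

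SETMAR.7 (Ocbimv22010145m, 834 bases) had another order. It measured 19.1 TPM in the hatchling, 62.1, 50.7 and 74.5 TPM in the proximal, medial and distal sections, and 57.6 and 68.7 TPM in the tips, so the tips lay inside the range of the sections. SETMAR.6 (Ocbimv22009925m, 778 bases) had 31.3 TPM in the hatchling, 39.5, 37.7 and 46.2 TPM in the sections and 82.0 and 93.0 TPM in the tips. SETMAR.17 (Ocbimv22015549m, 2415 bases) had 19.6, then 29.7, 34.7 and 38.7, then 77.6 and 81.3 TPM in the same order. In both of these the tips stood clear of all other libraries.

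SETMAR.14 (Ocbimv22013977m), the longest member at 16124 bases, drew the most reads, between 18.4% and 29.4% of the family's estimated counts in a library. Its level was 31.8 TPM in the hatchling, 28.2, 31.5 and 38.0 TPM in the sections, 71.1 TPM in the male tip (68.9 to 73.3) and 120 TPM in the female tip (117 to 123). The female tip therefore stood apart from the male tip in this member by more than counting error. The 6 members of highest mean level together held between 36.3% and 42.5% of the summed TPM, so the family total did not rest on 1 copy.

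**Figure D1:**
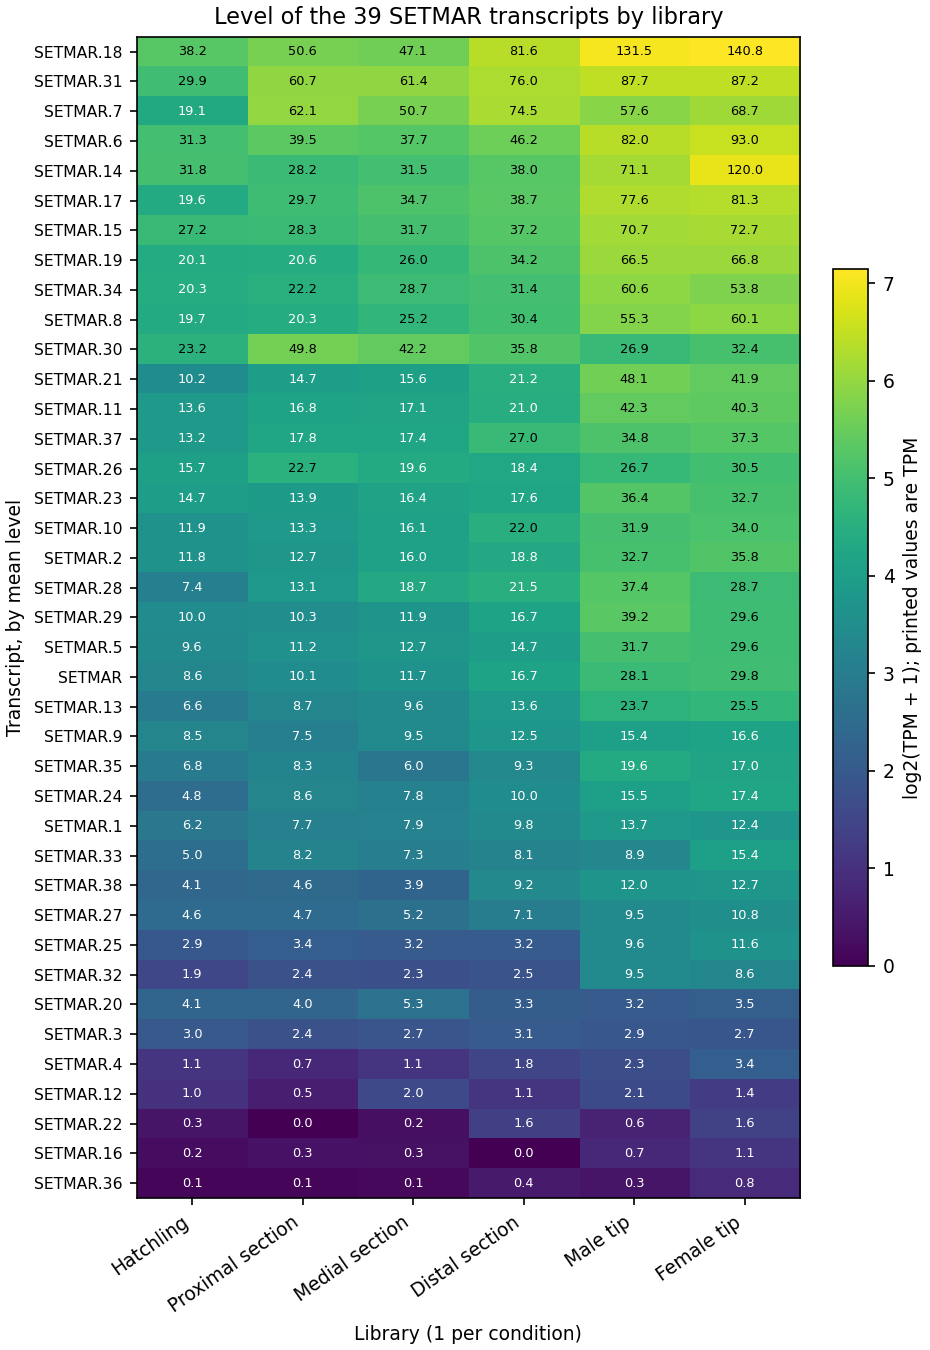
Heat map of the 39 SETMAR transcripts (rows, ordered by mean level) in the 6 libraries (columns), coloured by log2(TPM + 1) with the TPM value printed in each cell. The male and female tip columns are the brightest for most rows, while SETMAR.30 is brightest in the proximal section (49.8 TPM) and the last 3 rows stay near 0.

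At the other end, SETMAR.36 (Ocbimv22039580m), SETMAR.16 (Ocbimv22015247m) and SETMAR.22 (Ocbimv22017641m) had the lowest mean levels, 0.304, 0.432 and 0.719 TPM. SETMAR.36 drew 2, 1, 2 and 3 counts in the hatchling and the proximal, medial and distal sections, and 4 and 9 counts in the male and female tips. SETMAR.16, the member matched to the rat entry, drew no count in the distal section and between 1 and 3 counts elsewhere. With 3 counts as the bound of 0, its distal level could be up to 1.90 TPM, or 2.33 TPM by the exact interval. SETMAR.22 drew no count in the proximal section and between 1 and 5 counts in the other libraries. The same bound allows up to 0.672 TPM in the proximal section, and the exact interval 0.826 TPM. At such depth no order of the libraries can be read from these 3 members.

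Estimated counts that are not whole numbers are a sign that reads matched more than 1 target and were divided among them. Such counts, more than 0.01 from a whole number, occurred in at least 1 library for 34 of the 39 members (87.2%), against 57.9% of the coding targets with any count. In single libraries between 71.8% and 84.6% of the members above 0 were affected, against 47.2% to 51.8% of coding targets above 0 and 77.5% to 81.7% of those of at least 4000 bases. The members thus stood near other long transcripts in this respect. Which targets shared reads with a member was not tested, and the level of each of these 34 copies is uncertain to that extent.

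The estimated counts of 5 members, SETMAR.12, SETMAR.16, SETMAR.22, SETMAR.32 and SETMAR.36, were whole in every library. Of these, SETMAR.32 (Ocbimv22033065m, 5823 bases) alone had more than 9 counts in a library. It drew 82, 75, 74 and 33 counts in the hatchling and the proximal, medial and distal sections, and 202 and 174 counts in the male and female tips. In TPM these were 1.89 (1.51 to 2.35), 2.44 (1.92 to 3.06), 2.32 (1.83 to 2.92) and 2.55 (1.75 to 3.58), then 9.48 (8.21 to 10.9) and 8.64 (7.40 to 10.0). The 4 libraries outside the tips overlapped one another within counting error, and both tips lay above all of them.

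Summed over its members, the family reached its highest level in the 2 arm tips. The sum was 468 TPM in the hatchling, 641, 665 and 836 TPM in the proximal, medial and distal sections, and 1326 and 1410 TPM in the male and female tips. As a share of the estimated counts of coding targets, the family took 0.191% (0.188 to 0.194) in the hatchling, 0.216% (0.212 to 0.220), 0.239% (0.236 to 0.243) and 0.260% (0.254 to 0.266) in the sections, and 0.460% (0.454 to 0.467) and 0.508% (0.502 to 0.515) in the tips. No pair of these intervals overlapped.

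The scale on which libraries are compared moved part of this order. The mean of the tips over the mean of the medial and proximal sections was 2.10 in TPM over coding targets, 2.13 as a share of counts, 1.51 after TMM scaling (which sets libraries to a common level of most transcripts) and 1.39 in the deposited TPM. The mean of the tips over the distal section, which has the same labelled distance, was 1.64, 1.87, 1.51 and 1.67 on these scales in turn. On each of these 4 scales both tips were above the other 4 libraries and the hatchling was the lowest. The distal section, by contrast, was 1.26 times the medial section in TPM over coding targets, but 0.976 times after TMM scaling and 0.764 times in the deposited TPM. The female tip was 1.06 times the male tip in TPM over coding targets and 0.928 times after TMM scaling, so neither of these orders held on every scale.

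**Figure D2:**
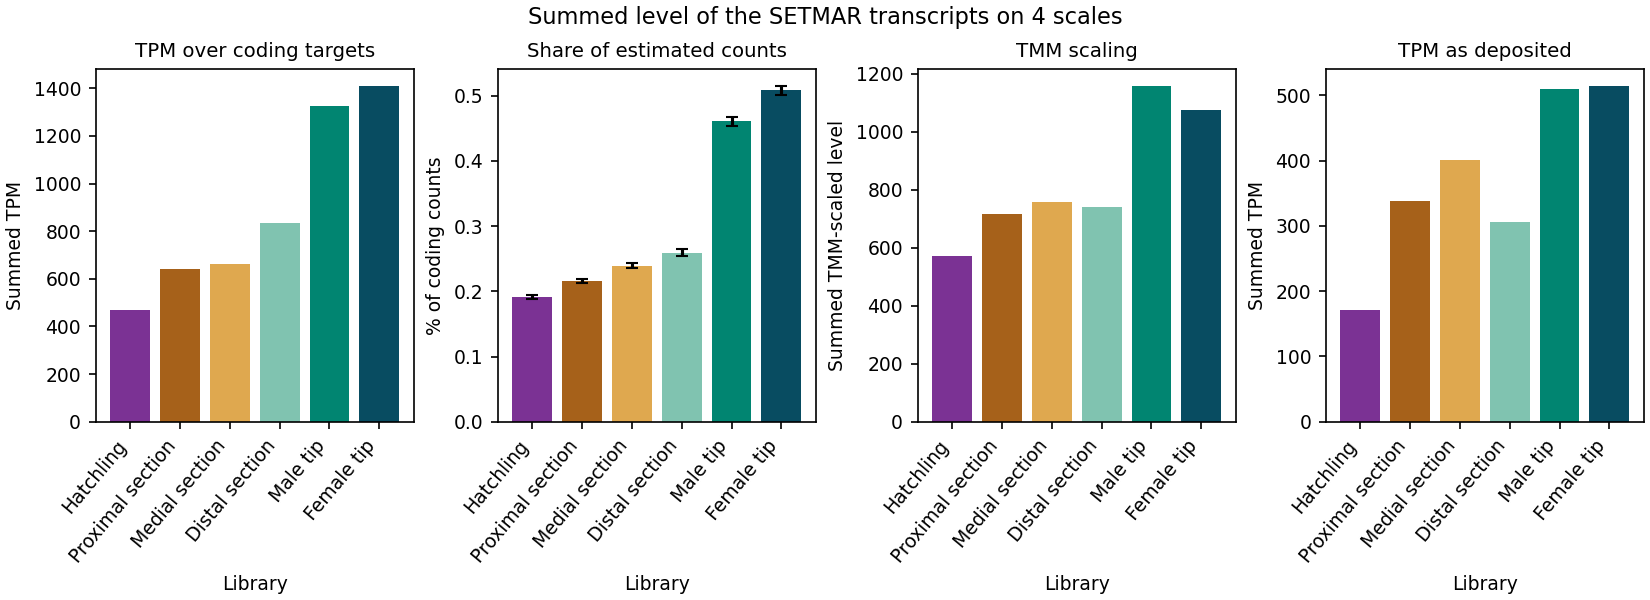
Summed level of the 39 SETMAR transcripts per library (bars, 1 library each) as TPM over coding targets, as a percentage of coding estimated counts with 95% Wilson intervals, after TMM scaling, and as deposited TPM. Both tips are the tallest bars in each panel (1326 and 1410 TPM in the first) and the hatchling the shortest (468 TPM), while the place of the distal section changes.

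The first comparison set the tips of OB2 and OB9 against the 2 sections of the OB-5 arm farther from its tip, and most of the family was higher in the tips. Of the 37 members at or above 1 TPM on either side, 22 (59.5%) were at least 2-fold higher in the median of the tips on the log2(TPM + 1) scale used for all ratios here, and 0 were at least 2-fold lower. Over all coding targets 29.1% were at least 2-fold higher and 7.91% lower. The median log2 ratio was 1.14 for the members and 0.52 for all coding targets, which is a difference of 0.62. Coding targets of at least 4000 bases had a median of 0.55, and those with a count that was not whole a median of 0.64. After TMM scaling the median was 0.69 for the members and 0.11 for all coding targets, and in the deposited TPM 0.57 and -0.02, so the members stood 0.58 and 0.59 above all coding targets on these scales. The 2-fold counts followed the scale: 6 of 36 members were at least 2-fold higher after TMM scaling, near the 16.1% of all coding targets, and 1 of 35 in the deposited TPM, against 10.3%. On both of these scales SETMAR.14 was at least 2-fold higher and SETMAR.30, alone of the members, at least 2-fold lower, against 14.5% of coding targets after TMM scaling and 15.5% in the deposited TPM.

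Each tip alone showed the pattern. Both were above each of the other 4 libraries, the hatchling and the distal section included, for 32 of the 38 members that reached 1 TPM in any library (84.2%), against 32.4% of coding targets. The share was 39.9% for coding targets of at least 4000 bases and 38.2% for those with a count that was not whole. The count of members was 28 of 37 after TMM scaling, against 22% of coding targets, and 26 of 36 in the deposited TPM, against 24.3%. Both were below the other 4 libraries for 0 members, against 11.1% of coding targets, and after TMM scaling for 3, SETMAR.3, SETMAR.20 and SETMAR.30, against 18.6%. With the further demand that the counting intervals of the tips lie wholly above those of the other libraries, 22 members (57.9%) qualified, against 6.66% of all coding targets and 19% of those of at least 4000 bases. No member's tip intervals lay wholly below, as those of 3.52% of coding targets did.

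SETMAR.14, SETMAR.32 and SETMAR.29 had the largest ratios. SETMAR.14 was 1.65 higher in log2, a 3.20-fold difference in TPM, with its tips at 71.1 and 120 TPM and the medial and proximal sections at 31.5 and 28.2 TPM. SETMAR.32, whose counts were all whole, was 1.57 higher, or 3.80-fold in TPM. SETMAR.29 (Ocbimv22029286m, 1878 bases) was 1.55 higher, or 3.09-fold, at 39.2 TPM in the male tip (34.5 to 44.2) and 29.6 TPM in the female tip (25.5 to 34.1), with 10.3, 11.9 and 16.7 TPM in the proximal, medial and distal sections and 10.0 TPM in the hatchling. For all 3 the tips and the other libraries did not overlap.

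A minority of the family did not share the pattern. SETMAR.30 (Ocbimv22031419m, 6432 bases) was lowest in the hatchling at 23.2 TPM (21.8 to 24.7), stood at 26.9 TPM in the male tip (24.8 to 29.1) and 32.4 TPM in the female tip (30.0 to 34.9), and was higher in the sections. There it reached 35.8 (32.6 to 39.2) distally, 42.2 (40.0 to 44.5) medially and 49.8 (47.3 to 52.3) proximally, all as TPM, and the intervals of the female tip and the distal section overlapped. Along the sections, and from the sections to the tips, its TPM thus ran opposite to that of the family sum. The female tip was above the male tip in both. Its log2 ratio between tips and the medial and proximal sections was -0.62. SETMAR.20 was the only other member compared with a ratio below 0, at -0.39, and SETMAR.3 (Ocbimv22005785m, 5253 bases) was nearly level across all 6 libraries, between 2.39 and 3.11 TPM. SETMAR.7 and SETMAR.31, both among the leading members, were 0.16 and 0.51 higher in log2, below the median of all coding targets.

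**Figure D3:**
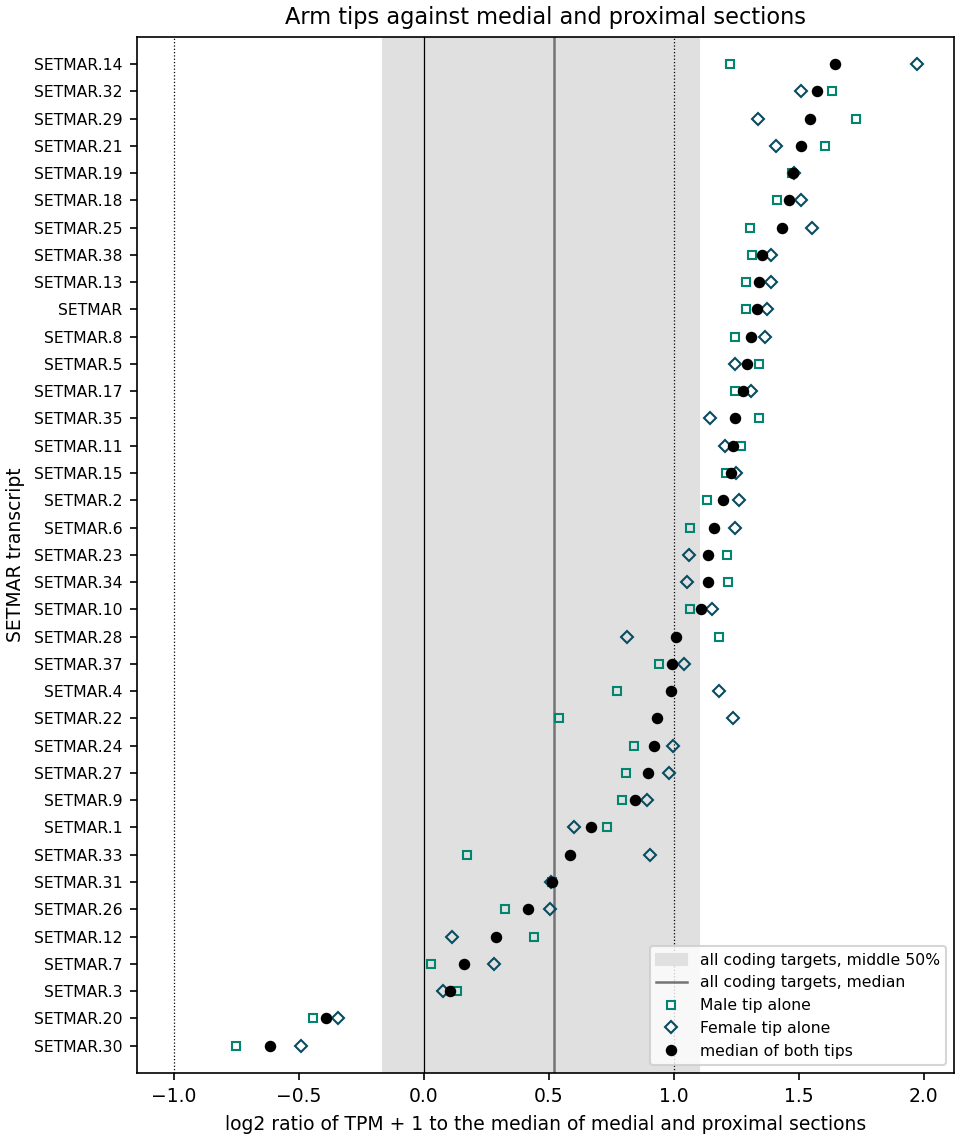
Ratio of TPM + 1 in the arm tips to the median of the medial and proximal sections on a log2 axis, for the 37 SETMAR transcripts at or above 1 TPM on either side (black points, median of both tips; open squares and diamonds, each tip alone; grey band and line, middle 50% and median of all coding targets). The black points run from -0.62 (SETMAR.30) to 1.65 (SETMAR.14) with a median of 1.14, to the right of the grey line at 0.52.

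The transcripts of the shared gene behaved differently from each other. SETMAR.21 (4239 bases) measured 10.2 TPM in the hatchling, 14.7, 15.6 and 21.2 TPM in the proximal, medial and distal sections, and 48.1 and 41.9 TPM in the male and female tips, a log2 ratio of 1.51 between tips and the medial and proximal sections. SETMAR.20 (4145 bases) measured 4.07, then 4.00, 5.29 and 3.27, then 3.15 and 3.46 TPM in the same libraries. SETMAR.20 therefore made up 28.5% of the pair's sum in the hatchling, 21.4%, 25.4% and 13.4% in the sections, and 6.15% and 7.62% in the tips. Reads of 2 transcripts of a gene can be divided between them by the estimate, and counts of both were not whole in most libraries, which limits how far the split can be read.

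SETMAR.37 (Ocbimv22039631m, 2363 bases) and SETMAR.38 (Ocbimv22039632m, 3800 bases) have consecutive transcript numbers and separate gene identifiers. SETMAR.37 measured 13.2 TPM in the hatchling, 17.8, 17.4 and 27.0 TPM in the proximal, medial and distal sections, and 34.8 and 37.3 TPM in the tips. SETMAR.38 measured 4.10, then 4.58, 3.90 and 9.21, then 12.0 and 12.7 TPM. Both had the same 3 highest libraries, the tips and the distal section, and SETMAR.37 was between 2.89 and 4.45 times SETMAR.38 in every library.

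The second comparison set the hatchling against the 5 arm libraries, and the family was lower in the hatchling. The hatchling reads alone had a further cleaning step (Fastp), and its part in the difference was not tested. Of 36 members compared, 34 were below the median of the arm libraries, 5 (13.9%) at least 2-fold. Above it were 2 members (5.56%), against 36.9% of all coding targets, and 0 were at least 2-fold higher. Over all coding targets 17.1% passed 2-fold downward and 10.5% upward, so with all 5 arm libraries the share of members past 2-fold downward was below the background. This turned with the arm libraries that set the median. Without the medial or the proximal section 21 of 37 members (56.8%) were at least 2-fold lower, against 24.4% and 24.6% of coding targets, and without the distal section 13 of 36 (36.1%), against 21%. Without the male or the female tip 3 of 36 (8.33%) were, against 14.3% and 13.7%. The count was 2 of 36 (5.56%) after TMM scaling, against 10.1%, and 9 of 34 (26.5%) in the deposited TPM, against 19.5%. The shift was broad: the median log2 ratio was -0.60 for the members, -0.28 for all coding targets and -0.39 for those of at least 4000 bases, and 30 of the 36 members were below the median of all coding targets. It was not particular to SETMAR, as the 48 other transcripts of the methyltransferase list had a median of -0.57. Of 41 of these compared, 9 (22.0%) were at least 2-fold lower in the hatchling and 2 (4.88%) at least 2-fold higher. After TMM scaling the members' median was -0.26 and that of all coding targets 0.03.

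The hatchling lay below all 5 arm libraries for 27 of 38 members (71.1%), against 25.9% of coding targets, and above all 5 for 0 members, against 15.1%. Among coding targets of at least 4000 bases it lay below all 5 for 39% and above all 5 for 8.91%. For the other listed methyltransferases the hatchling lay below all 5 for 20 of 46 (43.5%) and above all 5 for 3 (6.52%). After TMM scaling it lay below for 16 of 37 members (43.2%), against 17.3% of coding targets, and above for SETMAR.3. In the deposited TPM it lay below for 32 of 36 members (88.9%), against 39.2%, and above for 0, against 7.66%. The hatchling's counting interval was wholly below those of the arm libraries for 9 members (23.7%), against 5.5% of coding targets and 16.9% of those of at least 4000 bases, and wholly above for 0, against 5.28%. These 9 were SETMAR.7, SETMAR.11, SETMAR.17, SETMAR.18, SETMAR.21, SETMAR.24, SETMAR.30, SETMAR.31 and SETMAR.33.

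SETMAR.7 had the largest difference, -1.65 in log2, with 19.1 TPM (15.5 to 23.3) in the hatchling and 50.7 TPM (43.8 to 58.8) in the lowest arm library. SETMAR.28 (Ocbimv22025148m), the shortest member at 507 bases, was -1.42, at 7.41 TPM in the hatchling, 13.1, 18.7 and 21.5 TPM in the proximal, medial and distal sections and 37.4 and 28.7 TPM in the male and female tips. It rested on between 17.1 and 49.1 estimated counts per library, and its hatchling interval (4.60 to 11.6) overlapped that of the proximal section (8.17 to 19.3). SETMAR.31 was -1.32, at 29.9 TPM (26.5 to 33.7) against at least 60.7 TPM (54.9 to 67.2) in the arm. SETMAR.18 and SETMAR.38 followed at -1.08 and -1.0. SETMAR.3 and SETMAR.20 were the only members above the arm median, by 0.09 and 0.19.

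**Figure D4:**
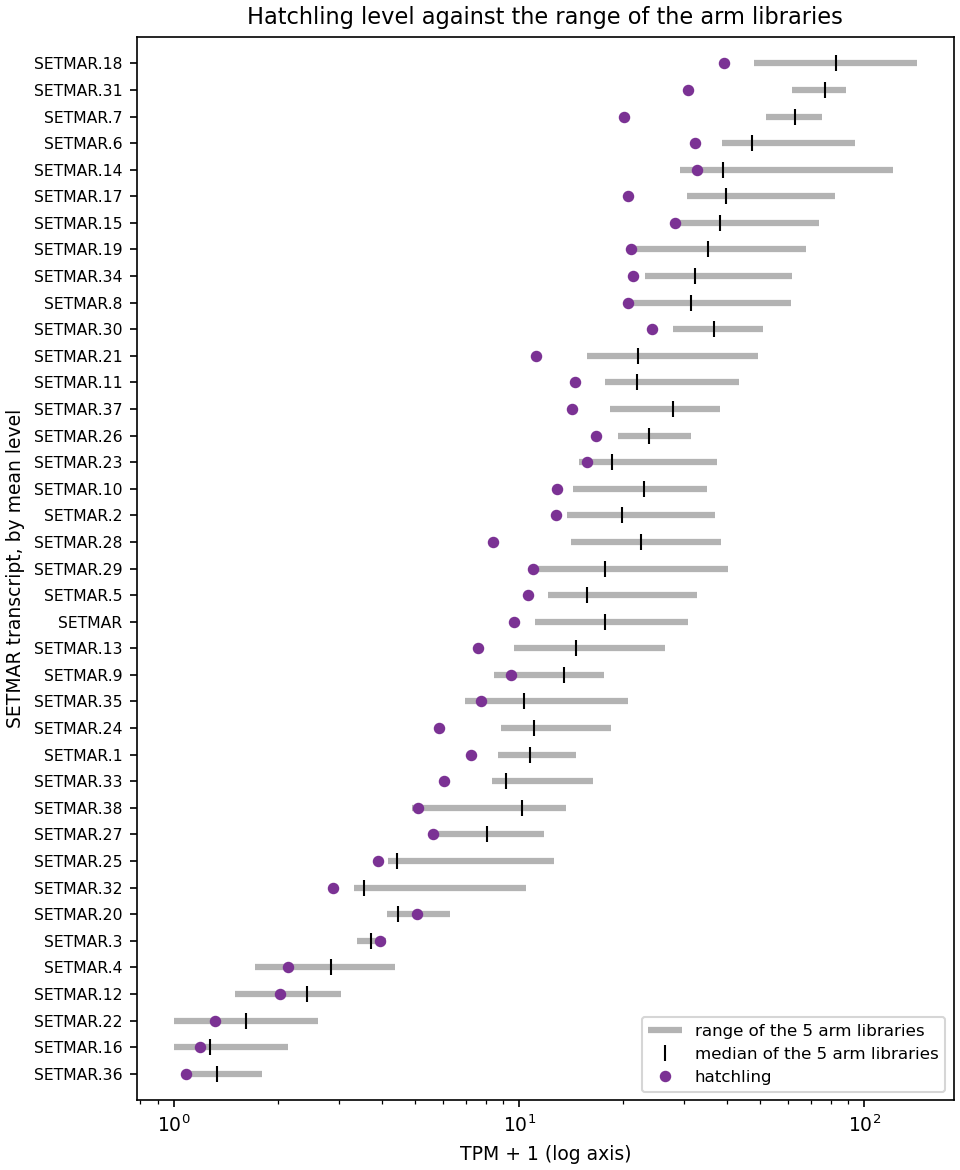
Level of each SETMAR transcript in the hatchling (points) beside the range (grey lines) and median (ticks) of the 5 arm libraries, as TPM + 1 on a log axis. The point lies left of the line for 27 of the 38 members that reached 1 TPM in any library, farthest from the arm median for SETMAR.7 (19.1 TPM in the hatchling), and to the right of it for none.

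The third comparison followed the arm of OB-5 at 1.5, 3.5 and 5.5 cm from its tip, which holds animal and arm constant. In TPM over coding targets 33 of 37 members (89.2%) were higher in the distal than in the medial section. So were 63.9% of all coding targets and 76.4% of those of at least 4000 bases. The median log2 ratio was 0.28 for the members, close to the 0.23 of all coding targets. At least 2-fold higher were 2 members (5.41%), against 16.2% of coding targets, and 0 were at least 2-fold lower, against 10.2%. The distal interval was wholly above the medial one for 11 of 38 members (28.9%), against 16% of all coding targets and 42% of those of at least 4000 bases. It was wholly below for SETMAR.30 alone (2.63%), against 4.79% of coding targets. After TMM scaling the members' median became -0.07 and that of all coding targets -0.10, and intervals were not compared on that scale.

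Of the 2 members past 2-fold, SETMAR.38 stood at 9.21 TPM (7.25 to 11.7) in the distal and 3.90 TPM (3.09 to 4.92) in the medial section, a log2 ratio of 1.06. SETMAR.22, at 1.07, rested on 3 counts against 1, and its intervals overlapped. Neither passed 2-fold after TMM scaling or in the deposited TPM.

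Between the proximal and the medial section the family differed little. None of 36 members was 2-fold apart, while 6.63% of coding targets passed 2-fold upward in the proximal section and 6.93% downward. The median log2 ratio was -0.13 for the members and 0.03 for all coding targets. In the proximal section 12 of the 36 members (33.3%) were higher, against 53.3% of all coding targets, and 24 were lower. Counting intervals were apart in that direction for 6 members (15.8%), SETMAR.2, SETMAR.8, SETMAR.10, SETMAR.14, SETMAR.19 and SETMAR.34, against 4.07% of coding targets and 10.7% of those of at least 4000 bases. In the other direction SETMAR.30 alone was apart (2.63%), against 6.25%. SETMAR.19 (Ocbimv22015642m, 6064 bases), for example, measured 20.6 TPM in the proximal and 26.0 TPM in the medial section.

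The female and the male tip came from 1 animal each, so sex and animal cannot be told apart. Of 38 members, 0 were 2-fold higher or lower in the female tip, against 11.7% and 7.59% of coding targets, and the median log2 ratio was 0.09, against 0.14 over all coding targets. Counting intervals were apart for 3 members higher in the female tip (7.89%), SETMAR.14, SETMAR.30 and SETMAR.33, against 11.7% of coding targets, and for 1 member lower, SETMAR.29 (2.63%), against 4.67%. SETMAR.14 had the largest log2 ratio, 0.75, and SETMAR.33 (Ocbimv22033851m, 6955 bases) followed at 0.73, with 8.86 TPM in the male and 15.4 TPM in the female tip. The middle 50% of members ran from -0.09 to 0.18 in log2, and that of all coding targets from -0.22 to 0.53. After TMM scaling the median was -0.10 for the members and -0.04 for all coding targets. Intervals were not compared on that scale.

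H3K36 methylation is written by SETD2, which adds the trimethyl mark, and by NSD1, NSD2 and ASH1L among others, and it is removed by demethylases such as KDM4A. The study's lists gave 17 other transcripts with an H3K36 writer function and 5 with an eraser function. Of the 15 writers compared, 5 (33.3%) were at least 2-fold higher in the tips than in the medial and proximal sections, near the 29.1% of all coding targets, and 0 lower, against 7.91%, with a median log2 ratio of 0.81. Of the 5 erasers 1 (20%) was higher and 0 lower, with a median of 0.53. Both tips were above the other 4 libraries for 5 of 16 writers and 1 of 5 erasers that reached 1 TPM, shares of 31.2% and 20%, beside 84.2% for SETMAR and 32.4% for all coding targets.

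Of the transcripts to which the study's lists give an H3K36 function, the 4 of highest mean level were SETD2, KDM4C, KDM4A and SETD3. SETD2 (Ocbimv22035018m) measured 24.6 TPM in the hatchling, 30.9, 27.5 and 37.6 TPM in the proximal, medial and distal sections, and 56.4 and 60.4 TPM in the tips, with the tips highest and the hatchling lowest, as in the SETMAR sum. KDM4C (Ocbimv22021418m), an eraser, had 19.8, then 27.6, 25.5 and 33.2, then 34.9 and 43.2 TPM. KDM4A (Ocbimv22013320m) lay between 18.8 and 30.3 TPM, with the male tip at 22.3 TPM inside the range of the other libraries. SETD3 (Ocbimv22009081m) lay between 13.2 and 21.5 TPM and was lowest in the female tip.

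The 48 other transcripts of the extended methyltransferase list had a median log2 ratio of 0.90 between the tips and the medial and proximal sections, beside 0.52 for all coding targets. Of 43 compared, 19 (44.2%) were at least 2-fold higher and 1 (2.33%) lower, against 29.1% and 7.91% of coding targets. Both tips were above the other 4 libraries for 22 of 46 (47.8%), against 32.4%. Their summed level was 445 TPM in the hatchling, 604, 532 and 693 TPM in the proximal, medial and distal sections and 974 and 1087 TPM in the tips, so the 39 SETMAR transcripts together outweighed the rest of the list in every library.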

How the data were processed

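RNA-seq libraries of 6 conditions (1 each) were used. Per the labels and the study's methods, reads were checked with FastQC 0.11.5, trimmed with Trimmomatic 0.36 (and, for the hatchling alone, cleaned with Fastp of poly-G tails and sequencer artifacts) and quantified by Kallisto against the annotated *O. bimaculoides* transcripts; the strand setting was not given in the sources used here. Each file deposited by the authors held, per target, its length and effective length, the estimated count (which need not be whole, as reads that match several targets are divided by likelihood) and the TPM over all 40327 targets, non-coding RNAs included.

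TPM was recomputed over the 38556 coding targets from estimated counts and effective lengths. Ratios were log2((TPM + 1)/(TPM + 1)) for targets at or above 1 TPM on either side, and a side of several libraries was represented by its median. A target was called at 2-fold, and the members' counts are given beside the share of all coding targets called. Counts were rounded to whole numbers for Poisson intervals (3 counts bound a count of 0) and for TMM factors (edgeR 4.0.16, R 4.3.3; between 0.863 and 1.20). No model was fitted.

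Coding depth ranged from 2812216 to 8201002 estimated counts. Names, functions and identifiers came from the study's supplementary lists, whose values were not used. Members and lists were chosen with earlier results of these data known. All 39 members could be named; described in full were the 6 highest and 3 lowest by mean level, the 3 largest ratios per direction among those 2-fold apart, members at 0 in any library and pairs with shared or adjacent identifiers, and further members were named after their values were seen. Alternatives changed the pseudocount, minimum level, fold, scale, tolerance for whole counts and the libraries included. RefSeq positions served only to count chromosomes and adjacent genes. Protein features of the members were not analysed here.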

Additional observations from a re-analysis of the deposited data

How the results depend on the processing

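The family sum kept both tips on top and the hatchling lowest on 4 scales, but its value moved. In the hatchling, proximal, medial and distal sections and male and female tips it was 172, 337, 400.3, 306, 510 and 514 in deposited TPM, 573, 717, 758, 739, 1157 and 1074 after TMM scaling, 0.191%, 0.216%, 0.239%, 0.259%, 0.460% and 0.508% of estimated counts, 430.2, 590.0, 617, 755, 1195 and 1269 TPM without SETMAR.18, and 3.51, 3.28, 4.90, 5.66, 13.2 and 13.6 TPM over the 5 members with whole counts, where the proximal section and not the hatchling was lowest. For tips against medial and proximal sections, the members at least 2-fold higher numbered 1 in deposited TPM, 6 after TMM scaling and 0 at 4-fold (10.3%, 16.1% and 5.38% of coding targets); 1 member was at least 2-fold lower on either of the first 2 scales (15.5% and 14.5% of coding targets), and the median log2 ratio was 0.57 in deposited TPM and 0.69 after TMM scaling. For distal against medial, the members at least 2-fold higher numbered 0 in deposited TPM, after TMM scaling and at 4-fold, and 1 with a minimum of 10 estimated counts, and the median log2 ratio changed sign, to -0.383 in deposited TPM and -0.0694 after TMM scaling, together with that of all coding targets (-0.38 and -0.10). For the hatchling against the arm median, the members at least 2-fold lower numbered 9 with a pseudocount of 0.1 and in deposited TPM (22.4% and 19.5% of coding targets), 2 after TMM scaling (10.1%), 0 at 4-fold (2.82%), and from 3 to 21 with 1 arm library left out: 21 without the medial or the proximal section (24.4% and 24.6% of coding targets), 13 without the distal section (21%) and 3 without the male or the female tip (14.3% and 13.7%); the median log2 ratio was -0.92 in deposited TPM, -0.26 after TMM scaling and from -1.07 to -0.477 with 1 library left out. Members above the arm range in the hatchling numbered 1 after TMM scaling and from 0 to 1 with 1 library left out, and those below it 16 after TMM scaling and from 27 to 31 with 1 library left out. A pseudocount of 0.1 put 1 member at least 2-fold higher in the female tip and 1 at least 2-fold lower in the proximal section, where TMM scaling also put 1; TMM scaling gave a median of -0.10 for female against male. At 10 TPM, 18 members passed in every library. The count of members with both tips above the other libraries, an alternative chosen after seeing the data, was 26 in deposited TPM and 28 after TMM scaling, and 33 with either tip left out. The causes of these moves were not tested, except that a higher fold or minimum admits fewer members by construction. The sections of the same arm were compared within that animal, but there were no replicate pairs because each condition has 1 library. With 1 library per condition, differences between animals, sections and library preparations cannot be separated, and members with under 10 counts per library show no order.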
